A study of Mus musculus with 15 samples.

Results

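The Myc family described here comprises 6 of the 27803 genes listed in the count tables: Mycn, Myc and Mycl, which encode the MYC proteins, Max, which encodes their shared partner, and Mxd3 and Mxd4, which encode antagonists. The genes were chosen by name, with earlier results of these data known, and were followed by cell type and condition with the animal as replicate. Gene expression was measured by Drop-seq, a droplet method in which each mRNA molecule is counted once through a unique molecular identifier (UMI) and assigned to a cell by a barcode. There were 15 mice of the C57BL/6 strain in 3 groups of 5. The WT group held untreated cerebella of wild-type mice at P7 (day 7 after birth). The vehicle and vismodegib groups held medulloblastomas of M-Smo mice, with the genotype Math1-Cre:SmoM2/EYFPloxP/loxP, harvested at P15 after 3 daily injections from P12. In these mice Cre under the Math1 (Atoh1) promoter switches on SmoM2, an SMO protein that signals without ligand, in cells of the Math1 lineage such as cerebellar granule neuron progenitors (CGNPs). Vismodegib is a SMO inhibitor, and vehicle-treated mice received injections without it. WT cells were captured on a different microfluidic device than tumor cells, so that age, genotype and device cannot be told apart in any comparison of tumors with WT.

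MYC proteins bind DNA as dimers with MAX at E-box sequences and raise transcription of genes for ribosome production, metabolism and cell cycle entry. MXD proteins compete for MAX and repress through the same sequences, and in many tissues members of the MXD group are expressed as cells leave the cycle. In the postnatal cerebellum, Sonic hedgehog (SHH) drives CGNP proliferation and Mycn is a known part of that response, while MYCN is short-lived and is degraded as CGNPs exit the cycle.

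The 6 genes lie on 5 mouse chromosomes in GENCODE M21 (GRCm38). Mycn was at chr12:12936093-12941914 on the minus strand, Myc at chr15:61985391-61990374 on the plus strand and Mycl at chr4:122995652-123002485 on the plus strand. Max was at chr12:76937269-76962201, Mxd3 at chr13:55325168-55329823 and Mxd4 at chr5:34173883-34187720, all on the minus strand. Max overlaps the annotated gene Gm47218 on the same strand, so its counts are uncertain to that extent. Mxd3 overlaps Prelid1, and Mxd4 overlaps Gm42846, on the opposite strand only.

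RefSeq promoter windows (GRCm38.p6) were at hand for 5 of the 6 members, without Myc. The 250 bases before the RefSeq start are shown for Mycn and Mxd4, the members that moved in opposite directions with vismodegib in CGNP-like cells. RefSeq starts differ from the GENCODE positions above, and both windows reach into the genes as placed there. Capitals mark matches to the E2F-type letters TTTGGCGC in Mycn, at chr12:12941837-12942086 on the minus strand, and to the E-box CACGTG in Mxd4, at chr5:34187711-34187960 on the minus strand.
Mycn: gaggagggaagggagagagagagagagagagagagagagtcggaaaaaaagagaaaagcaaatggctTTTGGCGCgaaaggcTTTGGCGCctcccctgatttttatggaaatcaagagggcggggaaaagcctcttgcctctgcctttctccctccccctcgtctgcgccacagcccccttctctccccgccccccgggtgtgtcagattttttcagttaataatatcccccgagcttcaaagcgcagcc
Mxd4: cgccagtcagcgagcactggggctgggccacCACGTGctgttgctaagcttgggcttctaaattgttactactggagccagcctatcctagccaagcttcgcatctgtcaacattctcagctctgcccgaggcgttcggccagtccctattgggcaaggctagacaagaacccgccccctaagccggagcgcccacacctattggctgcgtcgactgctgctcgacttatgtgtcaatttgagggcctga
The letters TTTGGCGC occurred 2 times in the Mycn window, starting 183 and 168 bases before the start, and in either strand in 0.417% of 32851 promoter windows of the same length. The E-box stood 219 bases before the start of Mxd4 and occurred in 6.02% of windows, with none in the windows of Mycn, Mycl, Max or Mxd3. The GLI-type letters GACCACCCA (0.225% of windows) and the other E2F-type letters TTTCCCGC (0.895% of windows) were in none of the 5 windows.

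After filtering, 37946 of 51841 barcodes were kept (73.2%), with 18293 cells from vehicle-treated tumors, 12429 from vismodegib-treated tumors and 7224 from WT cerebella. UMIs per table ranged from 4307404 to 17708677 in the vehicle group, from 2601001 to 10922460 in the vismodegib group and from 2310474 to 5952919 in WT. The median cell held 1141 to 2597 UMIs in vehicle-treated tumors, 1183.5 to 2368 in vismodegib-treated tumors and 1082.5 to 1625 in WT. At most 6 barcodes were shared by any pair of tables over 105 pairs. Cells were clustered without the family members, and clusters were named from marker genes. CGNP-like cells, with 17115 cells in vehicle-treated tumors, 11051 in vismodegib-treated tumors and 5057 in WT, were divided into 4 stages after the nodes of the study: Node A-like for cells replicating or dividing, Node B-like for progenitors in G1 or entering S phase, Node C-like for cells that begin to differentiate, and Node D-like for the most mature granule neurons. In clusters led by hemoglobin genes, 1457 tumor cells were placed by their next markers in Node C-like and 1017 WT cells in Node B-like, and each affected value is given without them where it changed. A further tumor cluster of 1882 cells was named Node C-like on weak grounds, since its Node C markers had a mean log2 fold of 0.175 over the other cells, Node B-like was the next class, and its leading genes Gm17322 and Hey1 also led a Node B-like cluster. It held 1431 of the 4938 Node C-like cells with vehicle, 451 of 3321 with vismodegib and none in WT, and values that changed without it are given beside the result. Levels are counts per 1000000 UMIs (CPM) of counts summed over the cells of a class in an animal.

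To determine how the SMO inhibitor changed the family in CGNP-like cells, vismodegib-treated tumors were compared with vehicle-treated tumors. Myc and Mycn fell and Mxd4 rose, while Mycl, Max and Mxd3 did not pass the test. Thus 3 of the 6 members were called at an adjusted p under 0.05 by the quasi-likelihood test of edgeR (Benjamini-Hochberg adjusted), against 12.9% of all 12423 genes tested.

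Mycn, the member tied most closely to SHH signaling in CGNPs, was at 408.2, 274.3, 280.5, 219.5 and 295.8 CPM in vehicle-treated tumors 1 to 5. In the vismodegib-treated tumors Mycn was at 156.0, 235.9, 116.1, 114.2 and 139.0 CPM. The groups overlapped through a single tumor, vismodegib 2, which lay above vehicle 4. Mycn fell by 0.95 on the log2 scale (SE 0.196, a 1.94-fold change), with an adjusted p of 0.00571 by edgeR's quasi-likelihood test. Node D-like cells, the stage with the lowest Mycn (70.5 CPM with vehicle and 38.4 CPM with vismodegib), numbered 740 with vehicle and 4042 with vismodegib. The part of this stage mix in the fall was not tested. Within Node A-like and Node B-like cells Mycn was not called, as given by stage below.

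Myc, a target of many growth signals, was at 68.7, 68.4, 77.0, 74.3 and 54.0 CPM in vehicle-treated CGNP-like cells. After vismodegib, Myc was at 7.6, 5.8, 7.8, 9.8 and 10.4 CPM. All vismodegib-treated tumors lay far below all vehicle-treated tumors. Myc fell by 3.00 (SE 0.195) on the log2 scale, a 7.98-fold change, with an adjusted p of 3.5e-06 by edgeR. The Myc level after vismodegib rested on 218 UMIs in 11051 cells. Its mean of 8.26 CPM was not above that of microglia-like cells of the same tumors (9.85 ± 9.51 CPM, n = 5, on 12 UMIs), and it lay above that of Node D-like cells, the most mature stage (1.42 ± 0.90 CPM, n = 5, on 12 UMIs in 4042 cells). The part of free RNA in the Myc level was not tested.

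Mycl, the least studied of the MYC genes in this lineage, was at 105.0, 76.7, 85.7, 60.2 and 81.1 CPM in vehicle-treated tumors. The vismodegib-treated tumors had Mycl at 68.8, 81.1, 54.4, 31.6 and 40.1 CPM. The ranges overlapped, and the fitted log2 difference of -0.58 (SE 0.222) had an adjusted p of 0.113 by edgeR. Leaving out vismodegib tumor 2, the highest of its group, gave -0.76 with an adjusted p of 0.0356. It was the 1 of 10 such fits that passed, and adjusted p in the others reached 0.225 by edgeR. The Mycl difference also passed with a split of the tumors by the serial number of the labels (up to 10 or above) as a term. It was then -0.62 with an adjusted p of 0.0179 by edgeR. With a split of the tumors into 2 sets as a term it was -0.74 with an adjusted p of 0.00391 by edgeR. Those sets came from the expression data of the same tumors, so this value is no independent support for the difference.

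Max, the obligate partner of both MYC and MXD proteins, was at 61.7 to 83.2 CPM (median 73.4) in vehicle-treated tumors and at 56.2 to 76.8 CPM (median 69.3) in vismodegib-treated tumors. The log2 difference in Max was -0.07, with an interval from -0.32 to 0.19 and an adjusted p of 0.795 by edgeR.

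Mxd3 and Mxd4, the antagonists, differed from each other. Mxd3 was at 81.2, 99.4, 63.2, 82.1 and 106.0 CPM in vehicle-treated tumors and at 65.4, 62.1, 74.1, 65.9 and 65.4 CPM in vismodegib-treated tumors, with overlapping ranges. The log2 difference in Mxd3 was -0.38 (SE 0.150), with an adjusted p of 0.128 by edgeR. Without vehicle tumor 3, the lowest of its group, it was -0.47 with an adjusted p of 0.0317. This was the 1 of 10 such fits that passed, and adjusted p in the others reached 0.311 by edgeR. Mxd4 was at 144.2, 108.3, 107.7, 116.4 and 108.8 CPM with vehicle and at 125.7, 173.8, 133.9, 222.5 and 182.4 CPM with vismodegib. The Mxd4 ranges also overlapped, since vehicle tumor 1 lay above vismodegib tumors 1 and 3. Mxd4 rose by 0.54 (SE 0.166) on the log2 scale, with an adjusted p of 0.0497 by edgeR. This call sat at the threshold and was lost without 7 of the 10 tumors in turn, with adjusted p up to 0.131, and under 8 other settings given with the limits. The stages within CGNP-like cells were also mixed differently in the groups, with Node D-like cells, in which Mxd4 was highest, making up 740 of 17115 cells with vehicle and 4042 of 11051 with vismodegib. Within Node A-like to Node D-like cells the Mxd4 differences were 0.14, -0.48, 0.29 and 0.16 on the log2 scale. Of these 0 were called by edgeR or DESeq2, and the one in Node B-like cells had an unadjusted p under 0.05.

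**Figure D1:**
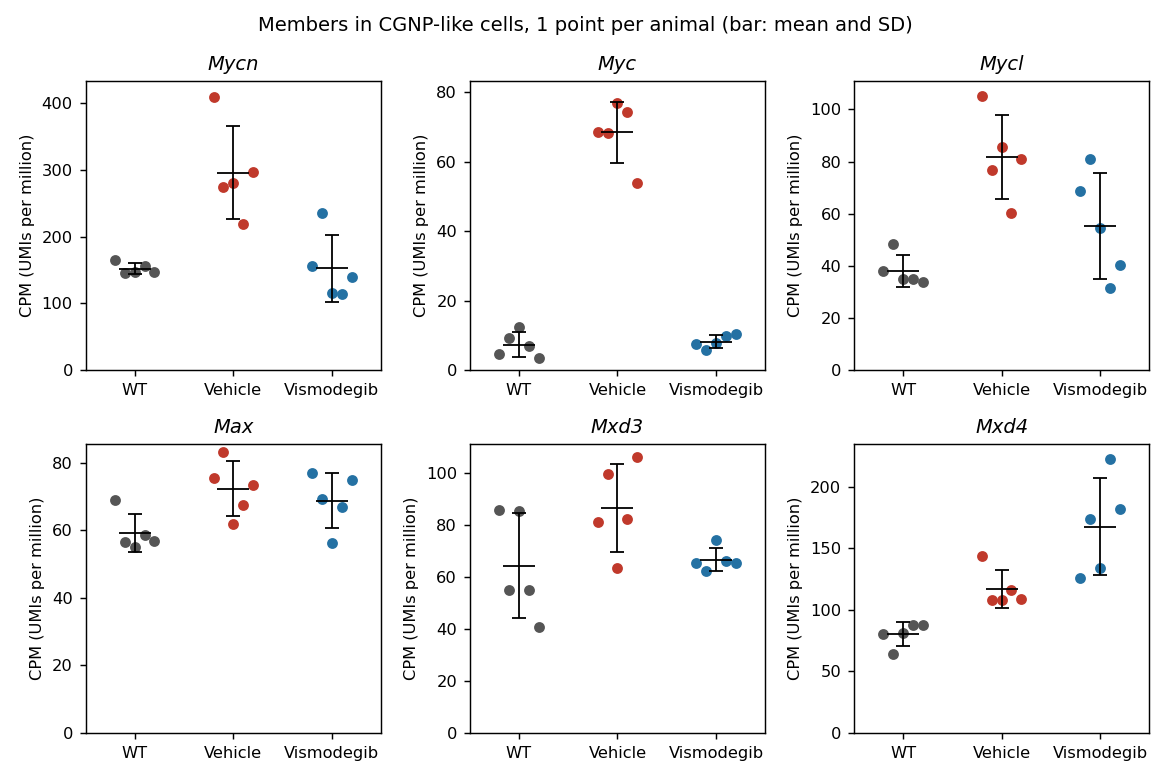
Levels of the 6 members in CGNP-like cells, in counts per 1000000 UMIs (CPM, y axis, from 0), with 1 point per animal and bars for mean and SD of 5 animals in the WT, vehicle and vismodegib groups. The 5 Myc values after vismodegib lie between 5.8 and 10.4 CPM, below the lowest vehicle value of 54.0 CPM, while Mxd4 lies higher after vismodegib with overlapping ranges.

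The tumors fell into 2 sets in an earlier analysis of these data (vehicle 1 and 3 with vismodegib 1, 2 and 3, against the rest). The ratio of group means was similar in both sets for Mycn, at -1.02 and -1.06 on the log2 scale. For Myc the ratio was -3.37 and -2.70 in the sets, for Mycl it was -0.49 and -1.02, for Max -0.03 and -0.08, and for Mxd3 -0.10 and -0.54. For Mxd4 the ratio was 0.20 in the first set and 0.86 in the other. The sets came from the expression data, hold 2 or 3 tumors a group, and their differences were not tested.

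Gli1, the direct readout of SHH signaling, was at 73.2 ± 23.6 CPM (SD, n = 5) in vehicle-treated CGNP-like cells and 53.2 ± 28.6 CPM after vismodegib, with a log2 difference of -0.47 and an adjusted p of 0.39 by edgeR. Hes1, a Notch and SHH target, fell from 135 ± 37.6 to 7.75 ± 2.17 CPM (SD, n = 5), by 4.08 on the log2 scale with an adjusted p of 1.9e-06, more than any member. Mki67, a marker of cycling cells, had a log2 difference of -0.16 with an adjusted p of 0.661, and Myod1, a myogenic transcription factor, one of 0.17 with an adjusted p of 0.744. In Node A-like and Node B-like cells the log2 differences in Gli1 were -0.09 and 0.12, with adjusted p of 0.947 and 0.897, and Hes1 fell by 3.41 and 3.59. The markers that named Node B-like clusters included Gli2 and the SHH pathway markers Ptch1, Hhip and Sfrp1. Cells in which these genes fell could therefore be placed outside this stage. The part of this in the Gli1 and Mycn differences within the stage was not tested. In Node B-like cells Mki67 was at 522 ± 222 CPM with vehicle and 752 ± 237 CPM with vismodegib, a difference of 0.54 with an adjusted p of 0.316 (unadjusted 0.0441), and Myod1 rose by 1.21 with an adjusted p of 0.0155, all by edgeR. The part of these differences in those of Mxd3 and Mxd4 in the same stage was not tested.

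Stage by stage, Myc fell in each proliferative or differentiating stage, and Mycn was called in Node C-like cells. In Node A-like cells 1 of the 6 members was called, against 2.25% of genes tested. In Node B-like cells 1 of the 6 members was called as well, against 2.94% of genes. Of 5 members tested in Node C-like cells 2 were called, against 1.51% of genes. In Node D-like cells 0 of 3 members tested were called by edgeR, against 0.0508% of genes, and 0 were called by DESeq2. At an unadjusted p under 0.05 there was 1, beside 347 of 5905 genes.

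Myc in Node A-like cells was at 61.4, 58.9, 74.9, 77.1 and 54.7 CPM in vehicle-treated tumors and at 13.9, 9.2, 9.2, 22.0 and 17.95 CPM in vismodegib-treated tumors. In Node B-like cells Myc was at 90.7, 107.7, 111.1, 114.5 and 68.7 CPM with vehicle and at 9.7, 8.9, 17.1, 12.2 and 25.1 CPM with vismodegib. The groups were apart in both stages. The log2 changes in Myc were -2.08 (SE 0.244) in Node A-like, -2.71 (SE 0.275) in Node B-like and -2.77 in Node C-like cells, with adjusted p of 0.000266, 0.000119 and 0.00118 by edgeR. Without the weakly named cluster Myc in Node C-like cells was at 16.0 ± 6.32 CPM with vehicle and 2.44 ± 1.91 CPM with vismodegib, too low for the filtered test, and without the filter the difference was -2.30 with an adjusted p of 0.00141. In Node D-like cells Myc was too low to be tested, with 11 UMIs in 740 vehicle-treated cells and 12 UMIs in 4042 vismodegib-treated cells.

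Mycn showed its clearest separation in Node C-like cells, in which CGNPs begin to differentiate. There, Mycn was at 386.0, 218.5, 310.0, 208.7 and 278.3 CPM with vehicle and at 104.8, 192.3, 117.7, 107.2 and 156.1 CPM with vismodegib, without overlap. Mycn fell by 1.02 on the log2 scale in Node C-like cells, with an adjusted p of 0.0117 by edgeR, and by 0.94 with an adjusted p of 0.0515 when vismodegib tumor 4 was left out. Without the weakly named cluster it was -1.06 with an adjusted p of 0.0163. In Node A-like cells Mycn was at 300 ± 47.2 CPM with vehicle and 227 ± 66.0 CPM with vismodegib (SD, n = 5), a log2 difference of -0.41 with an adjusted p of 0.326. In Node B-like cells Mycn was at 318 ± 84.4 and 208 ± 69.1 CPM, a difference of -0.60 with an adjusted p of 0.163. The unadjusted p of Mycn was 0.0284 in Node A-like and 0.0114 in Node B-like cells by the same edgeR fit. In Node D-like cells Mycn was at 48.7 to 103.8 CPM with vehicle and at 30.9 to 47.2 CPM with vismodegib, again without overlap, and the log2 difference of -0.88 had an adjusted p of 0.458 by edgeR. At a finer clustering (resolution 1.2) the Mycn difference in Node D-like cells was -1.45 with an adjusted p of 0.0242, and with cells named one by one it was -1.53 with an adjusted p of 0.0241. At the finer clustering a tumor cluster of 1619 cells led by a hemoglobin gene was named Node D-like. The hemoglobin-led tumor cluster of 1457 cells at the clustering used was Node C-like, so the stage did not hold the same cells.

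Mxd3 and Mxd4 showed opposite profiles over the stages. Mxd3 was high in Node A-like cells, at 191 ± 34.1 CPM with vehicle, 171 ± 25.7 CPM with vismodegib and 124 ± 34.5 CPM in WT (SD, n = 5), and lower in Node B-like cells at 49.5, 67.3 and 62.6 CPM. In Node C-like and Node D-like cells the mean of Mxd3 was under 10 CPM in all 3 groups. Mxd4 stood at 64.9, 108, 176 and 281 CPM in Node A-like to Node D-like cells of vehicle-treated tumors. With vismodegib these Mxd4 levels were 71.4, 75.9, 211 and 308 CPM, and in WT they were 52.3, 67.3, 112 and 138 CPM. Mycn and Myc were highest in Node A-like or Node B-like cells among the stages in each group, and Max was between 48.4 and 86.6 CPM in all stages and groups. These differences between stages are a description, since stages were defined from expression of the same cells.

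**Figure D2:**
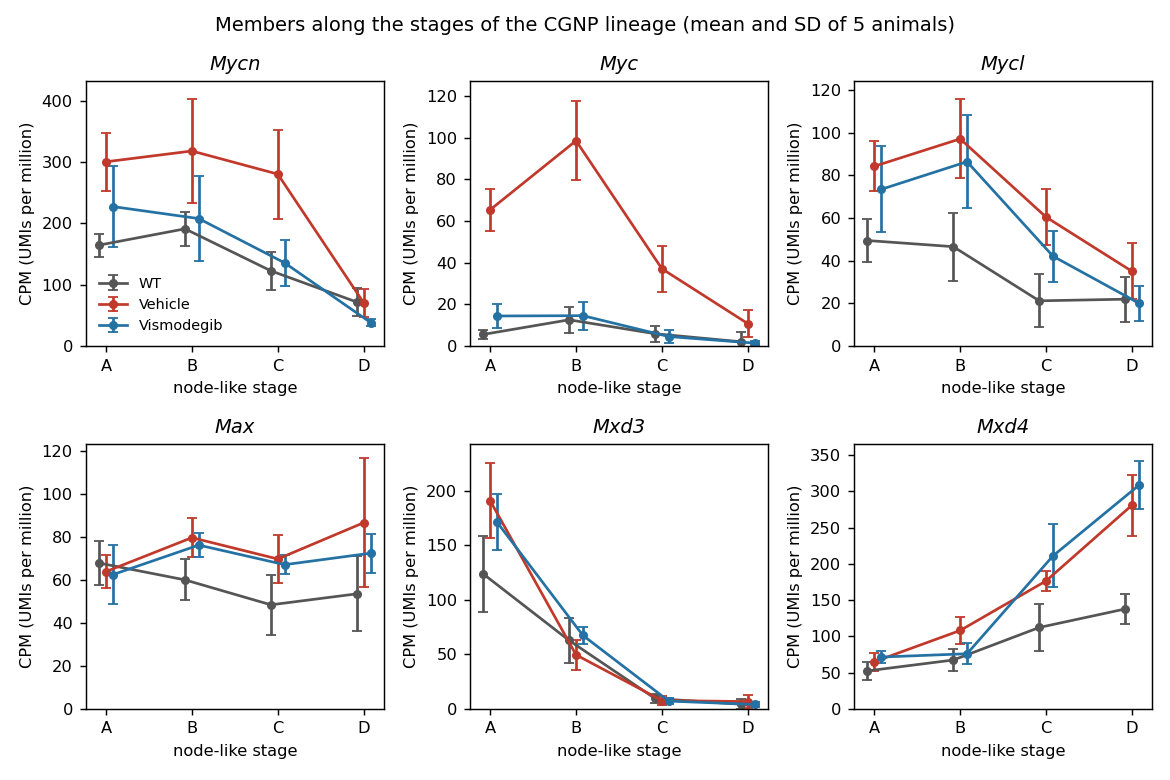
Mean level in counts per 1000000 UMIs (CPM, y axis, from 0) of each member in the 4 stages of the CGNP lineage (x axis), with SD of 5 animals as error bars and 1 line per group. Mxd3 declines from Node A-like to Node D-like cells while Mxd4 climbs, and Myc in vehicle-treated tumors stands above the other groups in Node A-like to Node C-like cells.

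The change of each member with vismodegib was also compared between Node A-like and Node B-like cells, the proliferative stages. Mxd4 in Node A-like cells had a log2 difference of 0.14 with vismodegib (adjusted p of 0.812 by edgeR), and in Node B-like cells it had a difference of -0.48 (adjusted p of 0.163). In Node B-like cells Mxd4 was at 135.6, 104.3, 87.1, 96.6 and 116.5 CPM with vehicle and at 69.4, 89.3, 57.6, 92.7 and 70.7 CPM with vismodegib. The log2 ratio of Node A-like to Node B-like Mxd4 was -0.73 ± 0.08 with vehicle and -0.07 ± 0.25 with vismodegib (SD, n = 5 each), a difference of 0.65 with p = 0.00794 in a two-sided exact permutation test, the smallest that 5 against 5 can give, and an adjusted p of 0.0476 over the 6 members. With cells named one by one in place of clusters the Mxd4 difference was 0.57 with an adjusted p of 0.119. For Mxd3 the same ratio differed by -0.62 (exact permutation p = 0.0317, adjusted p of 0.0952), and without vehicle tumor 1 it passed (-0.74, adjusted p of 0.0476). The differences for Mycn (0.21), Myc (0.58), Mycl (-0.05) and Max (0.00) had adjusted p from 0.190 to 0.976 in that test, and that for Myc passed without vismodegib tumor 3 (0.79, adjusted p of 0.0476).

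Over all cells of a tumor, 4 of the 6 members were called, against 13.9% of genes. Mycn fell by 1.07, Myc fell by 2.79 and Mxd3 fell by 0.49 on the log2 scale, and Mxd4 rose by 0.52, with adjusted p of 0.00541, 6.6e-06, 0.0367 and 0.043 by edgeR. The calls for Mxd3 and Mxd4 were each lost without 7 of the 10 tumors in turn, with adjusted p up to 0.0974 for Mxd3 and 0.118 for Mxd4. Mycl had a difference of -0.68 with an adjusted p of 0.0679. In such sums, fewer cells of a type and less RNA per cell cannot be told apart. Node B-like cells made up 35.4 ± 7.87% of UMIs in vehicle-treated tumors and 17.9 ± 7.16% in vismodegib-treated tumors, whereas Node D-like cells made up 3.73 ± 1.98% and 22.3 ± 10.2% (SD, n = 5).

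As a second scale for the sums over all cells, the class levels of each vismodegib-treated tumor were weighted by the mean class shares of the vehicle group. On this scale Mxd4 was at 127 ± 20.4 CPM in place of 181 ± 38.7 CPM as measured, beside 124 ± 17.0 CPM in vehicle-treated tumors (SD, n = 5). Mxd3 was at 80.7 ± 6.74 CPM in place of 59.6 ± 4.22 CPM, beside 81.7 ± 15.1 CPM with vehicle. With the vehicle mix, both antagonists had means within 1 SD of the vehicle group. These means average differences of opposite sign within stages, which for Mxd3 were -0.17 in Node A-like and 0.44 in Node B-like cells on the log2 scale and for Mxd4 are given above, and the part of the class mix in the changes was not tested. Mycn was at 179 ± 52.8 CPM in place of 136 ± 49.7 CPM, beside 279 ± 67.0 CPM with vehicle. Myc was at 12.7 ± 3.78 CPM in place of 9.63 ± 1.96 CPM, beside 66.5 ± 8.65 CPM with vehicle. Myc stayed far below all vehicle-treated tumors, and Mycn lay between. Mycl was at 66.7 in place of 51.9 CPM, beside 80.1 CPM with vehicle, and Max differed by less than 1 CPM between the scales.

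**Figure D3:**
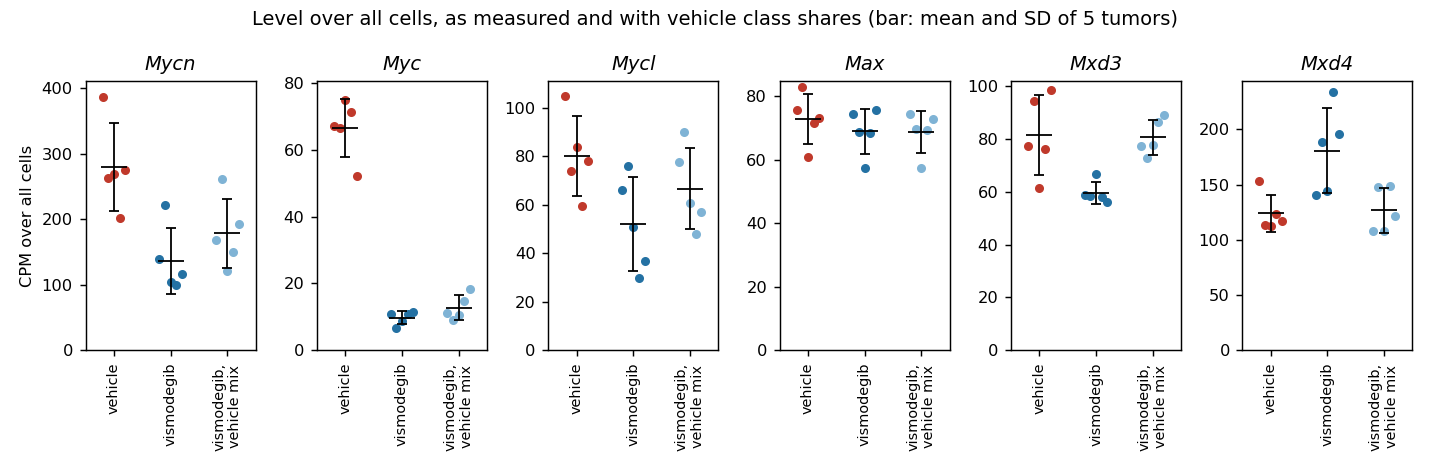
Level over all cells in counts per 1000000 UMIs (CPM, y axis, from 0) of the 6 members in vehicle-treated tumors, in vismodegib-treated tumors as measured, and in vismodegib-treated tumors with class shares set to the vehicle mean, with 1 point per tumor and bars for mean and SD of 5 tumors. With the vehicle mix, Mxd3 and Mxd4 have means of 80.7 and 127 CPM, within 1 SD of the vehicle means, while Myc has a mean of 12.7 CPM.

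The share of CGNP-like cells with at least 1 UMI was compared as well. It was taken over all 4 stages, whose mix differed between the groups. Node B-like cells were 7546 of 17115 with vehicle and 1977 of 11051 with vismodegib, and Node D-like cells were 740 and 4042. In this share the mix and changes within cells cannot be told apart. Each cell was thinned to 500 UMIs, so that depth was equal. Mycn was found in 12.95 ± 3.15% of cells with vehicle and 5.90 ± 2.34% with vismodegib (SD, n = 5), an adjusted p of 0.0238 by a two-sided exact permutation test. Myc was found in 2.94 ± 0.382% and 0.332 ± 0.0837%, with the same adjusted p. Mycl (3.85% and 2.35%) and Mxd3 (3.17% and 2.14%) had adjusted exact permutation p of 0.0476, and each passed no longer without 8 of the 10 tumors in turn, with adjusted p up to 0.0952. Max was found in 3.589% and 3.598% of cells (adjusted p of 0.968) and Mxd4 in 6.51% and 8.64% (adjusted p of 0.105), in the same permutation test. With 1 tumor left out in turn, Mxd4 passed in 1 of 10 such tests, with adjusted permutation p from 0.0476 to 0.219. Without thinning, the mean share was 38.1% and 19.8% for Mycn, 11.4% and 1.58% for Myc, 14.5% and 9.05% for Mycl, 12.97% and 9.68% for Mxd3, 13.6% and 12.6% for Max, and 19.99% and 26.9% for Mxd4.

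Microglia-like cells, immune cells outside the Math1 lineage, were set beside CGNP-like cells as a measure of free RNA, although whether they express the members themselves was not tested. Before thinning, Myc was found in 10 of 202 microglia-like cells of vehicle-treated tumors (4.95%, exact interval 2.40 to 8.92%) and in 8 of 329 of vismodegib-treated tumors (2.43%, 1.06 to 4.73%). The median depth was 2110.5 and 2306 UMIs in microglia-like cells and 1694 and 1693 UMIs in CGNP-like cells. After vismodegib Myc was found in 178 of 11051 CGNP-like cells (1.61%), which is not above the share of microglia-like cells. By level, Myc after vismodegib was at 14.4 ± 5.58 and 14.6 ± 6.68 CPM in Node A-like and Node B-like cells and at 1.42 ± 0.90 CPM in Node D-like cells (SD, n = 5). All Node A-like and Node B-like values lay above 2.38 CPM, the highest in the Node D-like stage. Thinned, Myc was in 35 of 11051 CGNP-like cells and in 0 of 329 microglia-like cells, which allows a share of up to 0.912% (3 counts of the total). Mycn was found in 7.92% of microglia-like cells with vehicle and 2.43% with vismodegib, well under its 38.2% and 19.9% of CGNP-like cells pooled over tumors. For Max, the unthinned share in microglia-like cells (13.9% and 17.3%) was at least that of CGNP-like cells (13.3% and 12.96%). For Mxd4, too, the shares were alike in microglia-like (19.8% and 29.2%) and CGNP-like cells (18.9% and 29.0%). These intervals cover counting error only.

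The marker genes Gli1, Hes1 and Myod1 were used to ask which proliferative tumor cells held Mycn, within Node A-like and Node B-like cells together. Gli1 marks active SHH signaling, Hes1 is a target of Notch as well, and Myod1 is found in these tumors. Mycn was at 285 ± 71.2 CPM in cells with a Gli1 UMI and at 260 ± 84.5 CPM in cells without (SD, n = 10 tumors), higher in 9 of 10 tumors, with a mean log2 ratio of 0.16 and an adjusted p of 0.00586 in an exact permutation of signs. Mycn was at 305 ± 94.6 CPM in cells with a Myod1 UMI and at 248 ± 83.6 CPM in those without, higher in 10 of 10 tumors, with a mean log2 ratio of 0.30 and the same adjusted p by permutation. For Hes1 the ratio was 0.01 (exact p = 0.955). In the vehicle-treated tumors Mycn was lower in cells with Hes1 in 5 of 5 tumors, with a mean log2 ratio of -0.25 and an exact permutation p of 0.0625, the smallest that 5 tumors can give. In the vismodegib-treated tumors the ratio for Hes1 was 0.27, with Mycn higher in 3 of 5 tumors (exact permutation p of 0.25), on 102 cells with Hes1.

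The cells with and without a marker UMI differ in depth, and the result changed when every cell was thinned to 500 UMIs. Thinning also removed counts. Mycn UMIs fell from 2498 to 115 in cells with Gli1 and from 3740 to 169 in cells with Myod1. The parts of equal depth and of lost counts in the change were not tested. The ratio for Myod1 was then -0.12 ± 0.40 in vehicle-treated tumors, with Mycn higher in 2 of 5, and 0.70 ± 0.87 in vismodegib-treated tumors, with Mycn higher in 4 of 5 (SD, n = 5). Over all 10 tumors it was 0.29 with Mycn higher in 6 (adjusted exact permutation p of 0.422). The ratio for Gli1 was 0.27 ± 0.30 in vehicle-treated tumors, with Mycn higher in 4 of 5, and -1.46 ± 3.31 in vismodegib-treated tumors, with Mycn higher in 3 of 5 (SD, n = 5). Of the vismodegib-treated tumors 1 had 0 Mycn UMIs in its cells with Gli1, which numbered 9 to 81 a tumor. Over all 10 tumors the mean was -0.59 with Mycn higher in 7 (adjusted exact permutation p of 0.711), resting on 115 Mycn UMIs in 653 cells, and its sign is not read as a direction. For Hes1 the ratio was -0.37 ± 0.30 in vehicle-treated tumors, with Mycn higher in 0 of 5 (SD, n = 5, exact permutation p of 0.0625). The vismodegib-treated tumors had 2 to 4 cells with Hes1 each, and 4 of these tumors had 0 Mycn UMIs in them. Over all 10 tumors the mean was -3.10 on 131 Mycn UMIs, of which the vismodegib-treated tumors held 1, and it is not read as a size.

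Vehicle-treated tumors were compared with WT cerebella to place the vehicle level of the family beside that of normal CGNP-like cells. Mycn, Myc, Mycl and Mxd4 were higher in the tumors, which is 4 of 6 members, against 45.0% of genes called. In WT, Mycn was at 164.8, 144.8, 146.9, 156.1 and 147.1 CPM in CGNP-like cells, and Myc was at 4.7, 9.4, 12.3, 6.8 and 3.5 CPM. Neither gene overlapped with the vehicle-treated tumors given above. Mycn was higher by 0.88 (SE 0.142) and Myc by 3.22 (SE 0.258) on the log2 scale, with adjusted p of 0.00016 and 4.1e-07 by edgeR. The WT level of Myc rested on 63 UMIs in 5057 cells, and its mean of 7.36 CPM was not above that of WT microglia-like cells (23.0 ± 26.8 CPM, n = 4, on 5 UMIs) and lay above that of WT Node D-like cells (2.08 ± 4.65 CPM, n = 5, on 1 UMI). Mycl was at 33.7 to 48.5 CPM in WT and higher by 1.03 in the tumors (SE 0.162, adjusted p of 0.000133 by edgeR). Mxd4 was at 64.5 to 87.7 CPM in WT and higher by 0.46 (adjusted p of 0.0138 by edgeR), and without the clusters led by hemoglobin the difference was 0.33 with an adjusted p of 0.0788. Max (0.21, adjusted p of 0.218) and Mxd3 (0.35, adjusted p of 0.187) did not pass the test.

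Within stages, 4 of 6 members were higher in vehicle-treated tumors than in WT in Node A-like cells (34.1% of genes called) and 4 of 6 in Node B-like cells (36.2%). Of 5 members tested in Node C-like cells 3 were higher (30.1% of genes called), in Node D-like cells 1 of 3 (26.6%), and over all cells 5 of 6 (48.0%). Of the calls over all cells, those for Max and Mxd3 were lost from a minimum of 1000 UMIs a cell (0.32 and 0.52, adjusted p of 0.0647 and 0.0502 by edgeR), and that for Mxd3 also without WT 2 or WT 4 (adjusted p of 0.0514 and 0.0548). Mycn, Myc and Mycl were higher in Node A-like, Node B-like and Node C-like cells. The log2 differences in Mycn were 0.73, 0.56 and 1.00, those in Myc were 3.62, 2.81 and 2.38, and those in Mycl were 0.69, 0.88 and 1.27. The WT levels behind the Myc differences were 5.597, 12.6 and 5.93 CPM, on 16, 34 and 12 UMIs. Without the weakly named cluster (an alternative chosen after seeing the data), 2 of the calls in Node C-like cells were lost. The difference in Mycl there was 0.73 with an adjusted p of 0.0942, and Myc was too low for the filtered test, with a difference of 1.28 and an adjusted p of 0.0782 without the filter. Mycn passed without that cluster (0.76, adjusted p of 0.00562). Mxd4 was not called with the cluster and passed without it (0.57, adjusted p of 0.032), all by edgeR. With the cluster kept, DESeq2 called 4 members in Node C-like cells, beside the 3 called by edgeR, and its share over all genes is not reported here. The call for Mycl in Node A-like cells was lost without WT cerebellum 1, at 0.53 with an adjusted p of 0.0521. Mxd3 was higher in Node A-like cells by 0.52 (adjusted p of 0.0396 by edgeR), a call lost without 7 of the 10 animals in turn, with adjusted p up to 0.111, and with cells named one by one (0.42, adjusted p of 0.102). In Node B-like cells the difference in Mxd3 was -0.53 (adjusted p of 0.0874), and 0.15 without the WT cluster led by hemoglobin. It passed in 1 of the 10 fits that left out 1 animal, with adjusted p from 0.0475 to 0.346 by edgeR. Mxd4 was higher in Node B-like cells by 0.53 (adjusted p of 0.0322), a call lost without WT 2, WT 4 or vehicle 5, with adjusted p of 0.0837, 0.0732 and 0.0567. Without the WT cluster led by hemoglobin the Mxd4 difference was 0.34 with an adjusted p of 0.304, and with cells named one by one it was 0.49 with an adjusted p of 0.087. In Node D-like cells Mxd4 was higher by 0.93 (adjusted p of 0.000435). Mycn in Node D-like cells was at 71.8 CPM in WT and 70.5 CPM with vehicle.

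**Figure D4:**
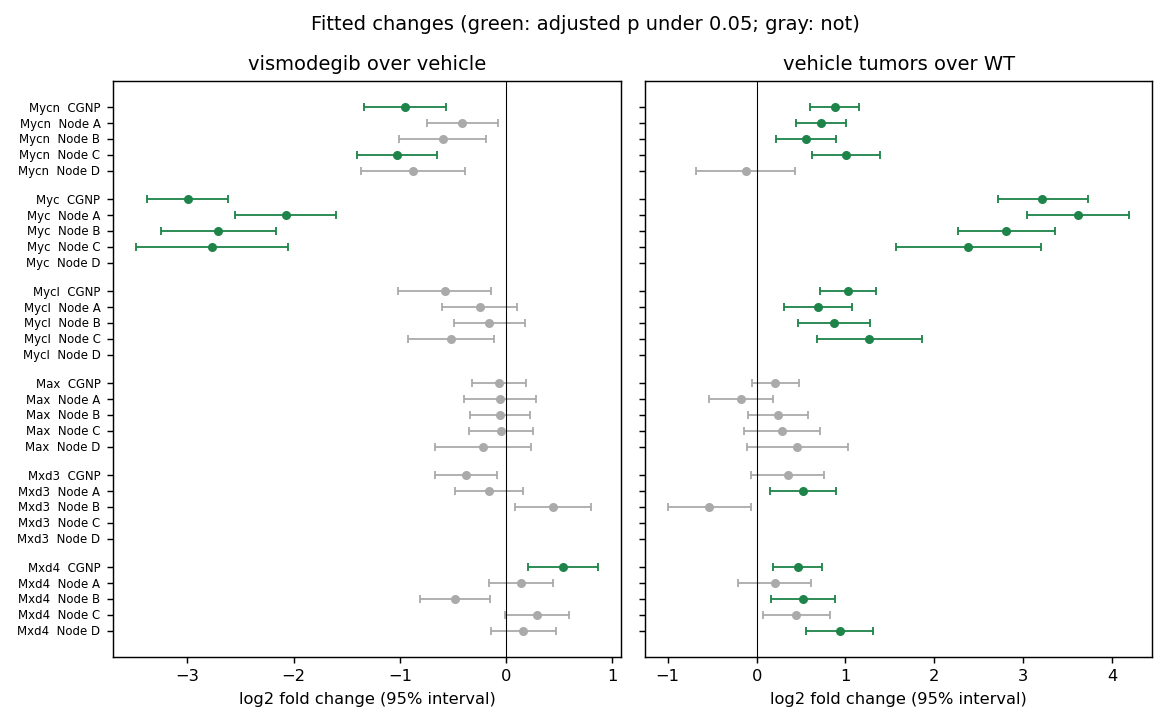
Fitted log2 fold changes of the members (x axis) with 95% intervals, in CGNP-like cells and each stage, for vismodegib over vehicle and for vehicle-treated tumors over WT, with 5 animals per group. Green marks an adjusted p under 0.05 and gray an adjusted p above it, and rows without a point were too low to be tested. The Myc change with vismodegib lies between -3.00 and -2.08 in CGNP-like cells and the 3 stages with a test.

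Outside the CGNP-like stages, oligodendrocyte lineage-like cells held Myc at a level that did not differ detectably between groups. The paper traced some astrocytic and oligodendrocytic cells of these tumors to Math1-Cre-expressing predecessors. Both classes can therefore hold cells of the tumor lineage, which were not separated here. Myc there was at 72.7, 38.7, 36.0, 76.7 and 54.6 CPM with vehicle, at 62.9, 88.2, 66.9 and 50.3 CPM in the 4 vismodegib-treated tumors with at least 10 such cells, and at 62.6, 75.5, 38.6, 64.2 and 104.3 CPM in WT. The groups overlapped throughout, on 52, 34 and 35 UMIs. Without the filter on low counts the log2 difference with vismodegib was 0.20 (SE 0.447) with an adjusted p of 0.896 by edgeR. The log2 ratio of Myc in CGNP-like to oligodendrocyte lineage-like cells was 0.35 ± 0.55 with vehicle (n = 5) and -2.86 ± 0.65 with vismodegib (n = 4), a difference of -3.21 with a two-sided exact permutation p of 0.00794, the smallest that 5 against 4 can give. This comparison was chosen after the values had been seen.

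Astrocyte-like cells had Mycn at 90.9 ± 40.5 CPM with vehicle and 24.3 ± 17.6 CPM with vismodegib, and Myc at 51.3 ± 14.5 and 16.4 ± 15.7 CPM (SD, n = 5), on 67 and 34 Mycn UMIs and 35 and 17 Myc UMIs. The class held 730 tumor cells at the clustering used and 374 at the finer one (resolution 1.2), at which a cluster of 455 cells led by muscle genes such as Tnnc2, Mylpf and Myh3 stood apart. Both were too low for the filtered test, and without the filter the log2 difference in Mycn was -1.59 with an adjusted p of 0.0164, and that in Myc was -1.60 with an adjusted p of 0.124 by edgeR. In microglia-like cells Mycn was at 56.7 ± 44.8 CPM (n = 4) with vehicle and 14.6 ± 15.9 CPM (n = 5) with vismodegib, a difference of -1.84 without the filter with an adjusted p of 0.363 by edgeR, and the part of free RNA in these values was not tested.

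Mxd4 had its highest means in the vascular classes. In endothelial-like cells it was at 541 ± 59.3 CPM (n = 3) with vehicle, 446 ± 169 CPM (n = 4) with vismodegib and 200 ± 55.6 CPM (n = 4) in WT. In vascular fibroblast-like cells it was at 424 ± 93.5 (n = 4), 409 ± 119 (n = 5) and 237 ± 47.0 CPM (n = 5). These neighbours in the order of classes did not differ beyond their spread, and the lower of them overlapped the next class in each group. The next class was Node D-like (281 CPM) with vehicle, astrocyte-like (347 CPM) with vismodegib and GABAergic neuron-like (183 CPM) in WT. With vismodegib, Mxd4 or Mycl could be tested in 5 classes outside the CGNP-like stages. There 0 members were called by edgeR or by DESeq2. Mxd4 in astrocyte-like cells (0.73, adjusted p of 0.0677 by edgeR) was the single value at an unadjusted p under 0.05. In that class 551 of 2220 genes passed the unadjusted limit. With cells named one by one, Mxd4 in astrocyte-like cells passed (1.14, adjusted p of 0.000237), as it did without vehicle tumor 3 (0.84, adjusted p of 0.0408) or vismodegib tumor 5 (0.83, adjusted p of 0.0468), by edgeR. The shares of genes called were 10.2% in astrocyte-like, 3.87% in oligodendrocyte lineage-like, 0.218% in microglia-like, 0.642% in vascular fibroblast-like and 0% in endothelial-like cells. Against WT, Mxd4 was higher in vehicle-treated tumors by 1.52 in endothelial-like cells (25.6% of genes called) and by 0.96 in vascular fibroblast-like cells (33.9% of genes called), and both calls depended on the setting. The call in fibroblasts was lost with DESeq2 (adjusted p of 0.23), and the call in endothelial-like cells was lost without the filter on low counts (1.33, adjusted p of 0.166). With cells named one by one the differences were 0.29 in fibroblast-like and 0.71 in endothelial-like cells, with adjusted p of 0.361 and 0.132 by edgeR. Mxd4 was not called against WT by either tool in astrocyte-like or oligodendrocyte lineage-like cells, in which 25.0% and 26.8% of genes were called by edgeR.

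In WT, the GABAergic progenitor-like cells, a separate lineage of inhibitory interneurons, had Mycn at 176 ± 34.2 CPM, Mycl at 77.1 ± 32.4 CPM and Mxd3 at 90.1 ± 34.1 CPM (SD, n = 5). For Mycn this was between the WT levels of Node A-like (165 ± 18.6 CPM) and Node B-like cells (191 ± 27.2 CPM), and the neighbours did not differ beyond their spread. Purkinje-like cells of WT held Mycn at 124 ± 28.6 CPM (n = 3).

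**Figure D5:**
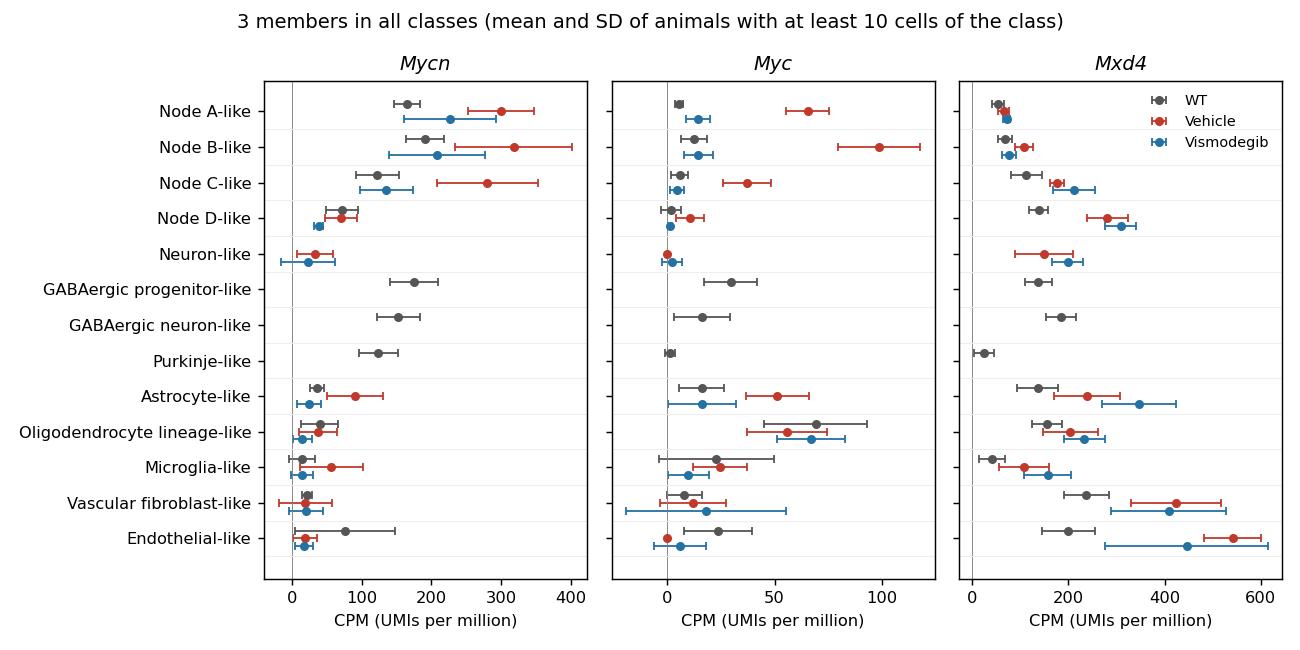
Mean level in counts per 1000000 UMIs (CPM, x axis) of Mycn, Myc and Mxd4 in each class (rows) for the WT, vehicle and vismodegib groups, with SD of the animals that had at least 10 cells of the class. Myc in oligodendrocyte lineage-like cells lies at 55.7 to 69.0 CPM in all 3 groups, and Mxd4 has its highest means in endothelial-like and vascular fibroblast-like cells.

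The wider network was read from lists of genes that the family is known to work with. Of 7 other members of the MAX and MLX network, 6 were tested in CGNP-like cells. With vismodegib 0 were called by edgeR or DESeq2, against 12.9% of all genes called by edgeR. At an unadjusted p under 0.05 there were 0, beside 3180 of all 12423 genes. The largest estimates were those of Mlxip (0.33), Mxd1 (0.25), Mlx (0.22) and Mga (0.11), on the log2 scale. The median of the list was 0.16, beside 0.00 for all genes tested. Of 6 genes for MYC protein turnover, 6 were tested and 0 were called by edgeR, against the same 12.9%. At an unadjusted p under 0.05, 1 was higher and 1 lower, beside the same 3180 of 12423 genes. DESeq2 called 2 (Aurka and Trpc4ap), and its share over all genes is not reported here. Aurka, a kinase that stabilizes MYCN, had a log2 difference of -0.47 (adjusted p of 0.0724), and Trpc4ap, part of a ubiquitin ligase for MYC, one of 0.45 (adjusted p of 0.0533) by edgeR. Plk1 (-0.32) and Gsk3b (0.19), kinases of the same pathway, followed. In Node A-like and Node B-like cells 0 of the 6 turnover genes were called by edgeR or DESeq2, against 2.25% and 2.94% of genes by edgeR. At an unadjusted p under 0.05 there were 0 in either stage, beside 1203 of 10023 and 1423 of 9504 genes. At that limit 1 of 5 tested was higher and 1 lower in Node C-like cells (1194 of 9418 genes). In Node D-like cells 1 of 4 was lower (347 of 5905 genes).

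Of 18 MYC targets for ribosome production, nucleotide synthesis and metabolism, 17 were tested in CGNP-like cells. By edgeR 0 were called, against 12.9% of all genes. At an unadjusted p under 0.05, 4 were lower, beside 3180 of all 12423 genes in either direction. DESeq2 called 2 (Npm1 and Ldha), and its share over all genes is not reported here. In all, 14 of the 17 had estimates below 0, and the median was -0.19 on the log2 scale, beside 0.00 for all genes tested. The largest differences were in Polr1b, a subunit of RNA polymerase I (-0.54, adjusted p of 0.198), in Npm1, a nucleolar chaperone (-0.48, adjusted p of 0.064), in Rrs1, a ribosome assembly factor (-0.38), and in Srm, spermidine synthase (-0.37), all by edgeR. The median of the targets was 0.09 in Node A-like and 0.22 in Node B-like cells, in which 1 of 17 was below 0, and -0.13 in Node C-like cells. In these 3 stages 0 targets were called by edgeR or DESeq2, against 2.25%, 2.94% and 1.51% of all genes by edgeR. At an unadjusted p under 0.05, 3 and 1 were higher in Node A-like and Node B-like cells and 3 were lower in Node C-like cells. Of all genes, 1203 of 10023, 1423 of 9504 and 1194 of 9418 passed that limit in either direction. In vehicle-treated tumors against WT, 6 of the 17 targets were higher and 6 lower in CGNP-like cells by edgeR, beside 45.0% of all genes called. DESeq2 called 12, and its share over all genes is not reported here. The median of the 17 targets was 0.24 on the log2 scale, beside 0.06 for all genes tested.

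Finally, genes with the most similar pattern were sought among 14518 genes over 32 means of class and group, which share libraries, by Pearson's r of log2(mean CPM + 10). Mycn was most like Dpy30 (0.88), Apex1 (0.87) and Lhx1 (0.85). Myc was most like C1ql3 (0.81), Pdzrn4 (0.77) and Pvt1 (0.77), the last of which is a noncoding gene next to Myc. Mycl was most like Txnrd1 (0.86), Nup107 (0.85) and Snw1 (0.83), and Max most like Arid4a (0.82), Zfp180 (0.81) and Rock2 (0.78). Mxd3 had the highest values, with Esco2 (0.95), Ska1 (0.92) and Eme1 (0.92), and Mxd4 was most like Nfat5 (0.81), Timp3 (0.76) and Agrn (0.76). Between members, r was 0.59 for Mycn with Mycl, 0.57 for Mycn with Mxd3, 0.63 for Myc with Mycl and 0.25 for Mycn with Myc. Mxd4 had r of -0.54 with Mycn and -0.41 with Mxd3. With a pseudocount of 1 in place of 10, Pdzrn4 and Pvt1 were at rank 51 and 12 for Myc, and Ska1 and Eme1 at rank 35 and 9 for Mxd3. These values describe the 32 means and carry no test.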

How the data were processed

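Cerebella and tumors were dissociated with papain and captured by Drop-seq, with a PDMS device for WT and one of glass for tumors. The deposited tables hold UMI counts per gene and cell, which the authors made with bcl2fastq 2.18, Drop-seq Tools and STAR against mm10 with the transgene sequences added. Tumor reads were first aligned to mixed mm10 and hg19 because tumor runs held human spike-in cells. For the gene annotation no version was found in the sources used here.

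Cells with at least 500 UMIs and 500 genes were kept if UMIs, genes and mitochondrial percentage were at most 5 SD above the median. No other doublet removal was made. Tumor and WT cells were clustered separately (graph resolution 0.8), with 41 genes held out, among them the members and the gene lists. Clusters were named from marker lists. After the data were seen, a red blood cell name was made to need over 50% hemoglobin UMIs. Counts were summed per animal and class (at least 10 cells, 3 animals a group) and tested with edgeR 4.0.16 (TMM, filterByExpr, quasi-likelihood, R 4.3.3) with Benjamini-Hochberg adjustment over all genes tested, called at 0.05. DESeq2 1.42.0 was an alternative. Scripts were tested on simulated data. Other tests were two-sided exact permutation tests over animals (scipy 1.17.1), on log2(CPM + 1) where levels were compared. The labels number the replicates but do not say whether animals shared a litter or a day. The members and lists were chosen with earlier results of these data known. The 6 members were named in every comparison, with up to 4 genes a list by size of change and the 3 most similar genes per member.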

Additional observations from a re-analysis of the deposited data

Results flagged for a closer look

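Of 108 groups of 5 animals examined, 8 held a value far from the other 4, and chance flags about 1 in 20 groups. Vehicle tumor 1 had Mxd4 at 153.3 CPM over all cells (the others 112.2 to 123.4) and at 144.2 CPM in CGNP-like cells (107.7 to 116.4). Vismodegib tumor 3 had Mxd3 at 66.93 CPM over all cells (56.0 to 58.78), and vismodegib tumor 1 had Max at 74.61 CPM in Node C-like cells (63.52 to 65.93) and Mxd3 at 0.0 CPM in Node D-like cells (4.756 to 5.204). WT cerebellum 1 had Max at 68.99 CPM in CGNP-like cells (54.96 to 58.49). WT cerebellum 3 had Myc at 9.022 CPM in Node A-like cells (3.853 to 5.248) and at 10.4 CPM in Node D-like cells, from 1 UMI, with the others at 0.

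The change of Mxd4 with vismodegib in Node A-like cells exceeded that in Node B-like cells by 0.6541 on the log2 scale. The change of Myc in CGNP-like cells minus that in oligodendrocyte lineage-like cells was -3.208. For Mxd3, all vismodegib-treated tumors lay above the vehicle mean in Node B-like cells, where the means differed by 17.82 CPM, and below it in Node D-like cells, where they differed by -2.649 CPM. This difference between the stages was not tested.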

How the results depend on the processing

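The falls of Myc and Mycn in CGNP-like cells with vismodegib, and their higher levels in vehicle-treated tumors than in WT, passed the test under every alternative run. Over 124 results and 2059 alternatives, 1814 kept direction and side of the threshold, 90 lost the call, 32 gained one, 34 changed sign and 89 others moved. The causes were not tested.

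With vismodegib over all cells, Mycl passed with DESeq2 (-0.6981), without the filter on low counts (-0.6968) and with the replicate block (-0.7231). It also passed with the split by serial number, up to 10 or above (-0.7227), and with the tumor set (-0.8467) as a term. The tumor sets came from the expression data, so fits with them are no independent support. Mxd3 was lost without the filter (-0.5204), with the replicate block (-0.4776) and from 1000 UMIs (-0.4629). Mxd4 was lost with RLE factors (0.5074), without the filter (0.5012), with the block (0.5002) and from 1000 UMIs (0.5132). In CGNP-like cells Mycl passed with the block (-0.6243), serial number (-0.6235) and tumor set (-0.7409). There Mxd4 was lost with RLE factors (0.5178), without the filter (0.4739), with the block (0.5066), an upper limit of 4 SD (0.5339), from 1000 UMIs (0.5069), at resolution 1.2 (0.5237), with cells named one by one (0.5337) and without clusters led by hemoglobin (0.5397), the last chosen after seeing the data. Signs turned for Max in Node C-like cells (0.03779 from 1000 UMIs, 0.0545 at resolution 1.2, 0.02861 without hemoglobin clusters), Mycl in oligodendrocyte lineage-like cells (0.003132 with serial number) and Mxd4 in endothelial-like cells (0.139 with the block, 0.4307 one by one).

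Against WT over all cells, Max (0.3988 with the block, 0.3159 from 1000 UMIs) and Mxd3 (0.6207 and 0.5184) were lost, and Mxd4 passed with DESeq2 (0.3659), without the filter (0.4584) and from 1000 UMIs (0.3462). In CGNP-like cells Mxd3 passed without the filter (0.5342), and Mxd4 was lost one by one (0.4004) and without hemoglobin clusters (0.3321). Without the weakly named cluster, chosen after seeing the data, Mycl was lost (0.7306) and Mxd4 passed (0.5727) in Node C-like cells, and without the filter as well Myc was lost (1.28). Signs turned for Mxd3 in Node B-like cells without hemoglobin clusters (0.1533) and for Mycn in Node D-like cells at resolution 1.2 (0.4806) and one by one (0.2495). The Mxd4 difference between Node A-like and Node B-like cells was lost one by one (0.5692). With the block it was 0.6541, and a test on 5 pairs cannot go below p = 0.0625 (an exact permutation of signs), so that this value says nothing on its stability. Within stages, the block gave 0.5363 for Mxd3 in Node A-like cells (adjusted p of 0.0714), 0.523 for Mxd4 in Node B-like cells (0.0577) and 1.741 for Mxd4 in endothelial-like cells (0.111), all by edgeR. Shares of cells in percentage points lost their call for Mycl at 1000 UMIs (-2.882) and for Mxd3 unthinned (-3.291), and Max turned sign (-0.9463 unthinned, -0.04409 at 1000 UMIs). Thinned to 500 UMIs, the Mycn ratio by marker was -0.5941 for Gli1, at 0.27 in vehicle-treated and -1.46 in vismodegib-treated tumors. Of the latter, 1 had 0 Mycn UMIs in its cells with Gli1. For Hes1 it was -3.103, at -0.37 in vehicle-treated tumors, and 4 vismodegib-treated tumors had 0 Mycn UMIs in their cells with Hes1. For Myod1 it was 0.2909.

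Same-numbered vehicle and vismodegib tumors 1 to 5 correlated at 0.0996, -0.146, -0.0150, 0.359 and 0.404 in their deviations from the group means, and WT and vehicle at -0.185 to 0.00736. The tumors of both arms were littermates, but no label says that a number marks a shared litter, so the numbers were not taken as pairs in the main test.

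Leaving out 1 animal at a time gave, with vismodegib over all cells, -0.8531 to -0.5281 for Mycl, -0.5786 to -0.4148 for Mxd3 and 0.3947 to 0.6042 for Mxd4. In CGNP-like cells it gave -0.755 to -0.4317 for Mycl, -0.4703 to -0.288 for Mxd3 and 0.3938 to 0.6279 for Mxd4. Max ranged from -0.1201 to 0.06753 in Node A-like and from -0.1302 to 0.005882 in Node C-like cells, Mycl from -0.2402 to 0.234 in oligodendrocyte lineage-like cells, and Mxd4 from -0.04799 to 0.1463 in vascular fibroblast-like cells. Against WT over all cells, Mxd3 ranged from 0.4805 to 0.7282 (lost without WT 2 or WT 4) and Mxd4 from 0.2734 to 0.3607. The Node A-like minus Node B-like differences ranged from 0.3814 to 0.7879 for Myc (passing without vismodegib 3), -0.1043 to 0.002634 for Mycl, -0.07594 to 0.12 for Max and -0.7406 to -0.5038 for Mxd3 (passing without vehicle 1). Shares ranged from -1.777 to -1.147 points for Mycl, -0.07647 to 0.1465 for Max, -1.317 to -0.804 for Mxd3 and 1.483 to 2.779 for Mxd4, and the Hes1 ratio from -0.07159 to 0.04537.

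Counts of genes called with vismodegib moved by over 1.5 times in Node A-like (226, or 386 to 429), Node B-like (279, or 431 to 568), Node C-like (142, or 32 without the weakly named cluster, chosen after seeing the data, to 406 with the tumor set) and Node D-like cells (3, or 10 to 113). They also moved in astrocyte-like (227, or 35 to 978), oligodendrocyte lineage-like (124, or 65 to 351), microglia-like (4, or 1 to 56), vascular fibroblast-like (4, or 0 to 55), endothelial-like (0, or 3 to 8) and neuron-like cells (0, or 1 without the filter and 517 one by one). Leaving out 1 tumor gave 185 without vehicle 5 in Node B-like cells, 71 to 85 without vehicle 5, vismodegib 1 or vismodegib 4 in Node C-like, 1 without vismodegib 4 and 5 without vehicle 1 in Node D-like, and 103 without vismodegib 4 in astrocyte-like cells. In oligodendrocyte lineage-like cells it gave 265 without vismodegib 4 and 29 to 81 without vismodegib 1 or 5 or vehicle 2, 3, 4 or 5. Of the smallest classes, microglia-like ranged from 0 to 10, vascular fibroblast-like from 0 to 12, and endothelial-like and neuron-like from 0 to 1. Against WT they moved without the filter in Node A-like (3296 to 5137), Node B-like (3486 to 5872, and 2232 without hemoglobin clusters), Node C-like (2614 to 4091), astrocyte-like (632 to 1303, and 1307 one by one), oligodendrocyte lineage-like (647 to 1297) and vascular fibroblast-like cells (262 to 543, and 422 one by one), in microglia-like cells (200, or 114 to 358) and in endothelial-like cells (159, or 1 with the block and 265 one by one).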
